A study of Tulipa gesneriana with 15 samples.

Results

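Opening of the tulip flower, taken as a whole, is described here by setting fully open flowers against closed buds. The comparison rests on 6 of the 15 libraries of the study: 3 of full blooming and 3 of buds, both from whole flowers of Tulipa gesneriana, the garden tulip, labelled WT. The other 9 libraries, 3 each of partial blooming, early senescence and late senescence, entered the estimate of the spread and are used to show where the same genes stood between and after these 2 stages. The labels name no treatment. They give no plant for a library, so any p-value here reflects only how these libraries vary, and that variation may be technical. A whole flower mixes the RNA of tepals, stamens and pistil; in such bulk samples, fewer cells of a type and less RNA per cell cannot be told apart.

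A tulip flower opens by growth of its tepals, the petal-like outer organs, in which cells take up water and expand with little further division. Over the same days the tepals gain their colour, much of it from anthocyanins, and the anthers release their pollen. Opening is therefore the change from organs that are still forming to organs that are full-sized and on display. These are general facts about the flower, and none of them is a result of these data.

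Values are FPKM as the authors deposited them, that is, fragment numbers divided by the length of the feature and the size of the library. The table lists 76388 identifiers. It pairs none with a gene name, a function or a sequence, so genes are described by their levels and courses, and only 4 are named by their identifiers. Each identifier is termed a gene here, though whether several belong to the same gene is not known. Of these identifiers, 41159 (53.9%) were at 1 FPKM or more in at least 3 of the 6 libraries and were tested, and 6302 were listed at 0 in all 6. Sums of FPKM ranged from 900514 to 933567 in full blooming and from 911145 to 977238 in buds; the number of reads behind them is unknown, since FPKM of scarce genes showed no steps of single reads.

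One library stood apart before any comparison was made. Over the tested genes, full blooming replicates 1 and 2 correlated at 0.961 with each other on log2(FPKM + 1), but at only 0.879 and 0.864 with full blooming replicate 3. Replicate 3 had its highest mean correlation with partial blooming (0.899), then with its own stage (0.872) and with buds (0.854). Replicates 1 and 2 correlated at 0.776 and 0.766 on average with buds. Genes at 1 FPKM or more numbered 35738, 35765 and 41044 in full blooming replicates 1 to 3, against 41377, 41115 and 38364 in the buds. Replicate 3 thus lay inside the range of the buds by this count, and the stages did not separate (exact permutation test over libraries, two-sided p = 0.2; 3 libraries against 3 cannot go below 0.1). Correlations across genes are descriptions, since genes are not independent replicates. Whether the flower behind replicate 3 was at the labelled stage was not tested, and the labels give nothing more on it; every mean of full blooming that follows includes this library unless it is said to be left out.

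Between buds and full blooming, expression of about 1 gene in 4 changed past the test in the fit of all 15 libraries; such genes are termed called. Of 41159 genes tested, 4359 were higher in full blooming and 6409 were lower, 26.2% in all (10.6% higher, 15.6% lower; limma, Benjamini-Hochberg adjusted p under 0.05). That share depended on the fit: it was 12.4% with the 6 libraries fitted alone and 45.8% with libraries weighted by quality. On the log2(FPKM + 1) scale the higher genes changed by a median of 1.06 and the lower genes by a median of -1.06. A change of 1 log2 unit or more was seen for 2334 higher genes (5.67% of those tested) and 3481 lower genes (8.46%). The middle 50% of changes lay between 0.73 and 1.73 for higher genes and between -1.52 and -0.76 for lower genes, so most called changes were moderate.

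Which direction held more genes turned with the scaling of the libraries. In the values as deposited, the middle gene of all those tested changed by -0.19 on the log2 scale, and higher genes made up 40.5% of the calls. Median-ratio scaling brought that median change to -0.02 and gave 5504 higher and 4787 lower genes, so that higher genes made up 53.5% of the calls. Quantile normalization gave a median of -0.01 with 5747 higher and 5128 lower genes, 52.8% higher. Of the genes higher as deposited, 4355 of 4359 were also higher with median-ratio scaling, while 4777 of the 6409 lower genes remained lower. The excess of lower over higher genes was thus present as deposited in the fit of all 15 libraries and absent under both of these scalings. Both scalings bring the libraries to a common level, which draws the median change toward 0 by construction. They therefore cannot decide which direction held more genes. As deposited, the 6 libraries fitted alone gave nearly equal counts, with 49.8% of the calls higher.

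As deposited, the count of lower genes moved more with single libraries than that of higher genes. When full blooming replicate 3 was left out, 40.5% of genes passed the test, 5140 of them higher (12.5%) and 11511 lower (28.0%), and the shares that changed by 1 log2 unit or more were 6.85% and 15.1%. Of the genes called higher with that library, 4193 (96.2%) were also called higher without it, and these made up 81.6% of the list without it. Of the genes called lower with it, 6143 (95.8%) were also called lower without it, but they made up only 53.4% of the list without it. No gene called in one direction with the library was called in the other without it. With median-ratio scaling and without the library, 7964 genes were higher and 7397 lower, and with quantile normalization 7567 and 7217, so under these scalings both counts grew by similar factors. The lower genes numbered 3502 without full blooming replicate 1, 3506 without full blooming replicate 2 and 4229 without bud replicate 2. Fitted on the 6 libraries alone, with their own estimate of the spread, the comparison called 2542 higher and 2567 lower genes.

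**Figure D1:**
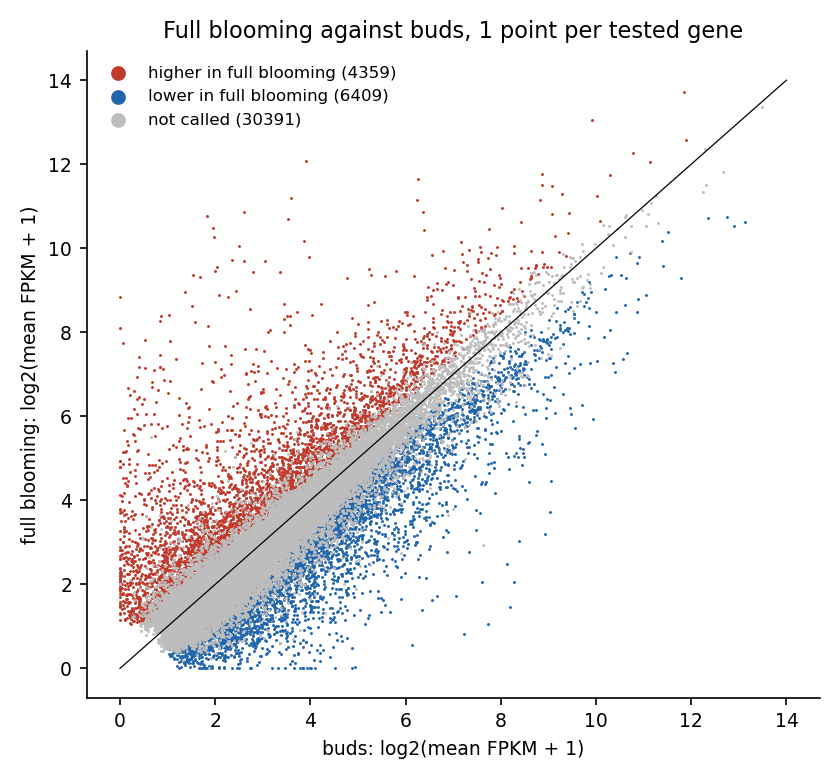
Mean level of each tested gene in full blooming (vertical axis) against buds (horizontal axis), both as log2 of the mean FPKM plus 1, with 1 point per gene; the line marks equal levels. The 4359 genes called higher lie above the line and the 6409 called lower lie below it, and the points farthest from the line are more often higher than lower.

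Rises of at least 5 log2 units were more frequent than falls of that size. Among called genes, 90 were higher and 30 were lower by at least 5 log2 units, and 363 were higher and 291 lower by at least 3. Leaving out full blooming replicate 3 gave 111 higher and 103 lower genes at 5 log2 units. With median-ratio scaling these were 101 and 21, and with that scaling and without the library 131 and 84, so rises were the more frequent at this size in all 4 settings. At 3 log2 units the order of the counts turned without full blooming replicate 3, at 427 higher and 598 lower genes. At 2 log2 units falls were the more frequent, with 842 higher and 863 lower genes. Without that library these were 1011 and 1673. The pseudocount of 1 makes the changes of scarce genes look smaller than they are, and the counts were not tested against each other.

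On the log2(FPKM + 1) scale, the change of many genes was bounded within 1 log2 unit. The 95% interval of the change lay within 1 log2 unit of 0 in both directions for 20800 genes, 50.5% of those tested. These intervals used the spread of all 15 libraries and were not adjusted for the number of genes. Such counts are not given for the 6 libraries fitted alone or for the other scalings. Of the 30391 genes not called, 19344 (63.7%) had such an interval, so the 20800 include called genes. For the other 11047 the interval reached past 1 log2 unit, so that a change of that size is not shown to be absent. Without full blooming replicate 3, 17225 genes (41.8%) had an interval within 1 log2 unit. The pseudocount of 1 draws the changes of scarce genes toward 0, so for them such an interval can hide a larger fold. Of the genes tested, 13902 had a mean under 3 FPKM.

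The libraries of both stages did not overlap for 34.1% of the tested genes, of which 5796 (14.1%) were higher in full blooming and 8227 (20.0%) lower. Of the 4359 genes called higher, 4198 (96.3%) had no overlap between the stages, and of the 6409 called lower, 5527 (86.2%). When full blooming replicate 3 was left out, 60.9% of tested genes had no overlap, a condition that 2 libraries against 3 meet more easily. The lower genes thus more often had a full blooming library within the range of the buds.

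Abundant genes were called more often than scarce ones. Genes were put in bins by the mean of their full blooming and bud mean FPKM. Under 3 FPKM, 16.1% of 13902 genes were called, with 5.42% higher and 10.7% lower. From 3 to 10 FPKM 24.4% were called, from 10 to 30 FPKM 32.5%, and from 30 to 100 FPKM 43.9%. At 100 FPKM or more, 57.8% of 1492 genes were called, with 28.6% higher and 29.2% lower. The share called in either direction also climbed without full blooming replicate 3 (32.2% under 3 FPKM, 66.8% at 100 FPKM or more). It did so with median-ratio scaling (15.4% and 56.8%) and with both changes together (26.7% and 70.3%). Without the library, as deposited, the climb lay mostly in the higher genes, from 5.57% to 35.8%, against 26.6% to 30.9% for the lower genes. With both changes these shares went from 8.94% to 45.2% and from 17.8% to 25.1%.

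The size of the change grew less with level than the share called did. Among called genes under 3 FPKM the median change was 0.98 for higher and -0.94 for lower genes. From 10 to 30 FPKM these were 1.00 and -1.05, and at 100 FPKM or more 1.40 and -1.38. The median half-width of the 95% interval was 0.54 log2 units under 3 FPKM, 0.45 from 30 to 100 FPKM and 0.49 at 100 FPKM or more. The pseudocount draws the changes of genes under 3 FPKM toward 0; its part in the climb with level was not tested.

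Which bins full blooming replicate 3 moved depended on the scaling. As deposited, it moved the scarce lower genes by the most: under 3 FPKM, 10.7% of genes were called lower with this library and 26.6% without it. At 100 FPKM or more these shares were 29.2% with it and 30.9% without it. For the higher genes the shares were 5.42% with it and 5.57% without it under 3 FPKM, and 28.6% with it and 35.8% without it at 100 FPKM or more. With median-ratio scaling the abundant higher genes moved by more points than the scarce lower ones. The share called higher at 30 to 100 FPKM was then 24.7% with the library and 39.8% without it, and at 100 FPKM or more 31.2% with it and 45.2% without it. The share called lower under 3 FPKM was 8.07% with it and 17.8% without it.

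**Figure D2:**
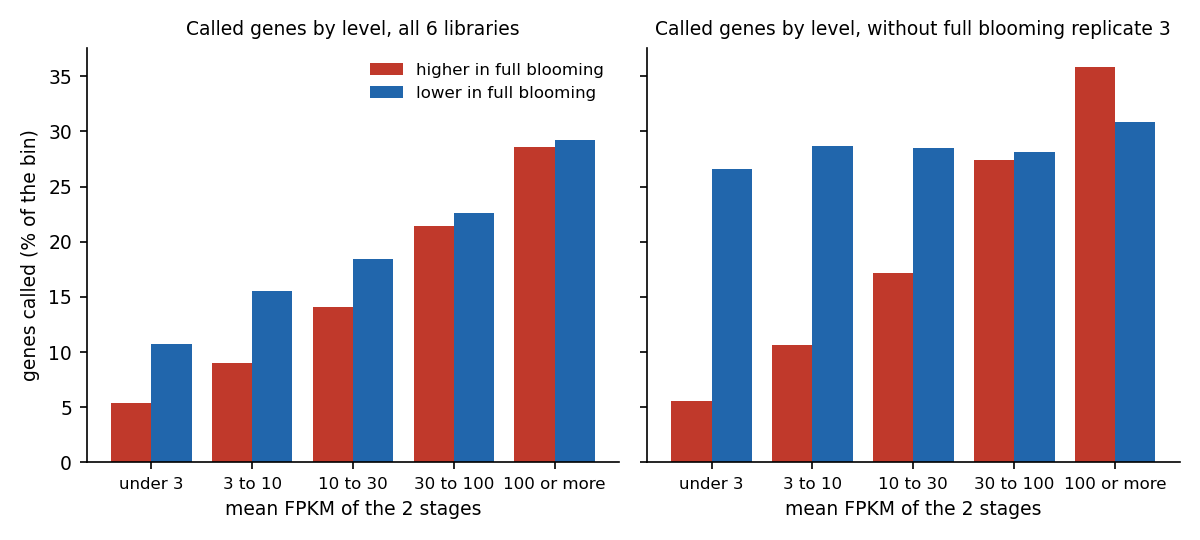
Share of tested genes called higher or lower in full blooming (vertical axis, percent of the bin) by mean FPKM of both stages (horizontal axis), with all 6 libraries on the left and without full blooming replicate 3 on the right. With all 6 the share climbs with level in both directions; without the library, the share called lower is between 26.6% and 30.9% in every bin.

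Each library was then compared with genes that it had no part in choosing. It was left out in turn, the other 14 libraries were fitted again, and the left-out library was placed, gene by gene, between the mean of the other stage (place 0) and the mean of the other libraries of its own stage (place 1). Only genes that passed the filter on level without that library were used.

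Full blooming replicates 1 and 2 each lay beyond the buds for nearly all of these genes. For replicate 1 the median place was 1.12 over 2701 higher genes and 1.19 over 3497 lower genes, and 98.5% and 98.8% of these genes lay beyond all 3 bud libraries in the called direction. Over all genes that passed the filter, 22.0% and 50.8% of genes did so. For replicate 2 the median places were 1.14 and 1.21. Place 1 for these libraries is a mean that includes replicate 3, which lay nearer to the buds and so raises their places. The 3 bud libraries had median places between 0.83 and 1.00, and lay beyond all full blooming libraries for 93.1% to 96.0% of the higher genes and 74.7% to 96.0% of the lower genes, against 24.7% to 27.9% and 28.8% to 43.1% of all genes that passed the filter.

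Full blooming replicate 3 went only part of the way. For 4628 genes called higher without it, its median place was 0.63, with quartiles at 0.41 and 0.82. It lay above the mean of the buds for 93.9% of them, against 51.5% of all genes, and above all 3 bud libraries for 82.5%, against 28.9% of all genes. For 33.8% of them it was nearer to the buds than to the other 2 full blooming libraries. For 10985 genes called lower without it, its median place was 0.25, with quartiles at -0.01 and 0.54. It lay below the mean of the buds for 73.8% of them, against 48.5% of all genes. It was below all 3 bud libraries for 54.0%, against 29.8% of all genes. For 72.4% of them it was nearer to the buds than to the other 2 full blooming libraries. With median-ratio scaling the median places were 0.39 for 7415 higher genes and 0.35 for 7027 lower genes. The library therefore lay between the stages under both scalings, while the gap between higher and lower genes depended on the scaling.

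**Figure D3:**
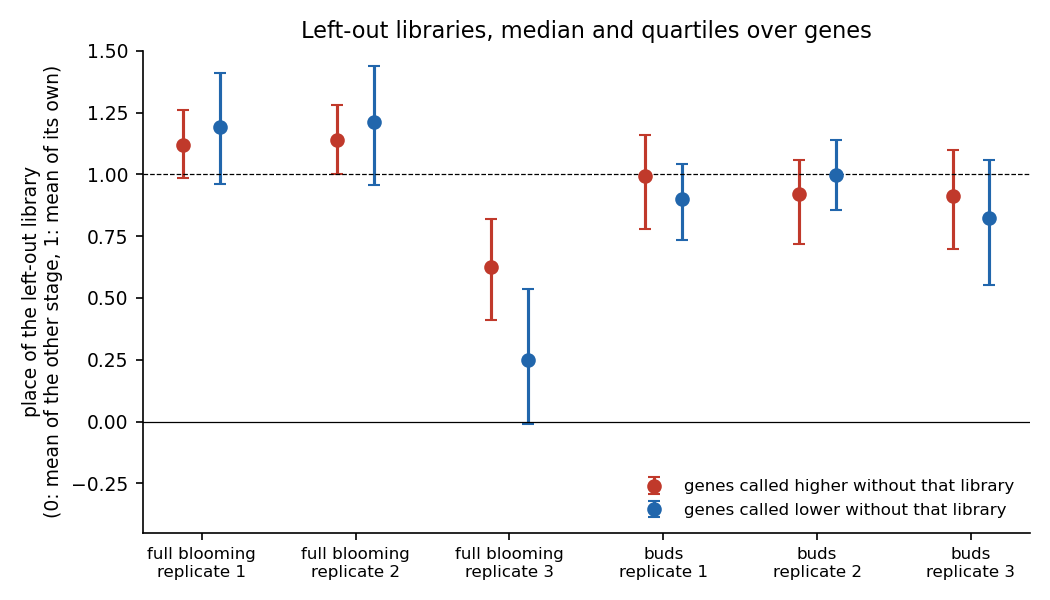
Place of each left-out library between the mean of the other stage (0) and the mean of its own stage (1) on the vertical axis, for genes called higher or lower without it; points are medians and bars are quartiles over genes. Full blooming replicate 3 has median places of 0.63 and 0.25, while the other 5 libraries have medians from 0.83 to 1.21.

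On the same genes, full blooming replicate 3 stood near the partial blooming libraries for the higher genes and nearer to the buds for the lower genes. Partial blooming replicates 1 to 3 had median places of 0.65, 0.67 and 0.62 for the genes called higher without full blooming replicate 3, close to its 0.63. For the genes called lower they had median places of 0.70, 0.54 and 0.46, all above its 0.25. With median-ratio scaling the median places of partial blooming were 0.63, 0.55 and 0.49 for the higher genes and 0.71, 0.59 and 0.50 for the lower genes, above those of the library in both directions. Among the lower genes as deposited, its median place was 0.19 under 3 FPKM and 0.37 at 100 FPKM or more.

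The called genes took very different shares of all expression before and after opening. The 4359 higher genes held 40.7%, 41.3% and 28.0% of the summed FPKM in full blooming replicates 1 to 3, against 10.8%, 11.5% and 12.2% in the buds. The means were 36.7% ± 7.50 in full blooming and 11.5% ± 0.685 in buds (SD, n = 3 each). The 6409 lower genes held 10.6%, 10.003% and 18.8% in full blooming, against 33.8%, 34.5% and 35.4% in buds. Replicate 3 was the lowest of its stage for the first set and the highest for the second. The genes called lower without replicate 3 held 43.5% ± 1.87 in buds, against 34.6% ± 0.821 for those called with it (SD, n = 3 each). Since these sets were chosen by the same values, the shares give their weight in the library and are not a test.

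Partial blooming, whose libraries had no part in the choice beyond the shared spread, lay most of the way toward full blooming for these genes. Averaged over libraries, the median level of the higher genes on the log2(FPKM + 1) scale was 2.69 in buds, 3.80 in partial blooming and 4.12 in full blooming. The median change of these genes was 0.75 from buds to partial blooming and 0.32 from partial to full blooming. For the lower genes the median level was 3.57 in buds, 2.70 in partial blooming and 2.30 in full blooming, and the 2 steps had median changes of -0.77 and -0.28. Over all tested genes these steps had median changes of -0.15 and -0.03. Both steps share libraries with the comparison that chose the genes, so their values stand side by side as a description.

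The split between the steps was more even without full blooming replicate 3. With genes and means taken without it, the higher genes changed by a median of 0.68 in the first step and 0.41 in the second, and the lower genes by -0.62 and -0.46. Partial blooming was at least 50% of the way to full blooming for 73.3% of the higher and 78.9% of the lower genes with that library, and for 65.3% and 61.7% without it. It lay outside the span of the 2 stages for some genes: it was beyond full blooming for 789 higher genes (18.1%) and 992 lower genes (15.5%), and on the far side of the buds for 121 (2.78%) and 144 (2.25%). Without full blooming replicate 3 it was beyond full blooming for 689 of 5140 higher genes (13.4%) and 641 of 11511 lower genes (5.57%).

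After opening, both sets were described at the senescence stages too. The higher genes held 43.6% ± 0.559 of the summed FPKM in early and 31.5% ± 3.66 in late senescence (SD, n = 3 each). Their median level on the log2(FPKM + 1) scale was 4.29 and then 3.95, both above the 2.69 of the buds. The lower genes held 9.11% ± 0.197 in early and 14.6% ± 0.549 in late senescence, with median levels of 1.97 and then 2.64, both below the 3.57 of the buds. In late senescence 738 of the 4359 higher genes and 766 of the 6409 lower genes had a mean on the far side of their bud mean. Without full blooming replicate 3 these were 1012 of 5140 and 1920 of 11511. No gene was required to pass a test at these stages.

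**Figure D4:**
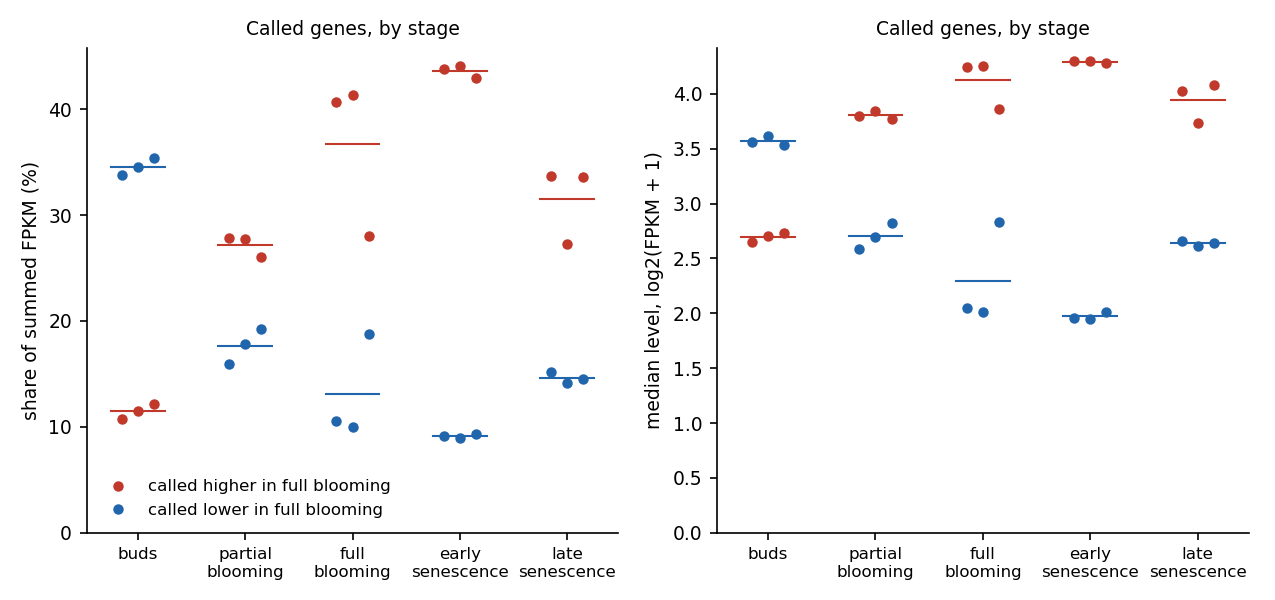
Share of the summed FPKM (left, percent) and median level as log2(FPKM + 1) (right) of the genes called higher and lower in full blooming, by stage; points are libraries and lines are stage means. The higher genes hold the smallest mean share in buds (11.5%) and the largest in early senescence (43.6%), the lower genes the largest in buds (34.6%) and the smallest in early senescence (9.11%), and full blooming replicate 3 stands off from its stage in both panels.

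Fewer than 50 of the 100 most abundant genes were the same in both stages. Ranked by stage mean, the 100 most abundant genes of full blooming and of buds had 45 genes in common, and the 10 most abundant had 4. Without full blooming replicate 3 these counts were 42 and 3. The 1000 most abundant had 613 in common, or 565 without that library. Partial blooming and buds shared 56 of their 100 most abundant genes and 6 of the first 10.

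The genes that joined the 100 most abundant had been at a lower level in buds than the level at which those that left it stood in full blooming. The 55 genes in the list of full blooming only had a median of 1048 FPKM in full blooming and 192 FPKM in buds, where their median rank was 707. Of these, 51 were called higher and 8 had a bud mean under 10 FPKM. They held 9.52%, 9.90% and 6.21% of the summed FPKM in the full blooming libraries, against 1.42%, 1.62% and 1.68% in the buds and between 4.94% and 5.43% in partial blooming. The 55 genes in the list of buds only had a median of 423 FPKM in full blooming and 925 FPKM in buds, and 42 of them were called lower. In full blooming replicates 1 to 3 these genes had medians of 334, 263 and 584 FPKM. They held 2.01%, 1.92% and 3.5% of the summed FPKM there, against 6.41%, 6.53% and 6.86% in the buds. Their median rank in full blooming was 252, and none had a full blooming mean under 10 FPKM. The 45 shared genes held 12.4% of the mean FPKM in full blooming and 13.1% in buds, and 27 of them were not called. The lists were chosen by these levels, so the values and the counts of calls describe them and are not a test. Of all tested genes at 100 FPKM or more, 28.6% were called higher and 29.2% lower.

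Few genes went from one side of detection to the other. A total of 62 genes had 1 FPKM or more in every full blooming library and under 0.1 FPKM in every bud library, and 42 genes had the reverse pattern. Most were low: the median of their means in the stage where they were seen was 3.92 FPKM for the first and 3.39 FPKM for the second. At 5 FPKM or more in place of 1, 17 and 8 genes met the rule. Of the 62 genes, 40 were listed at 0 in all 3 bud libraries, and of the 42 genes, 28 were listed at 0 in all 3 of full blooming. A value of 0 may also stand for an estimate that failed.

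Without full blooming replicate 3 the balance of these genes turned, to 92 genes seen in full blooming and 252 seen in buds. With 1 library fewer the condition is easier to pass, and leaving out any other single library gave between 77 and 113 of the first and between 65 and 81 of the second kind. Of the 252 genes, 158 were at 1 FPKM or more in full blooming replicate 3. In partial blooming, 32 of the 62 genes seen in full blooming were already at 1 FPKM or more in all 3 libraries, and 1 of the 42 seen in buds was still so. Of the 62, 45 had 1 FPKM or more in every early senescence library and 30 in every late senescence library. Of the 42 seen in buds, 3 did so in early and 15 in late senescence.

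The largest changes among genes called with and without full blooming replicate 3 show the range of levels that opening spans. F01.PB21651 had 1796, 2095 and 1316 FPKM in full blooming, against 2.17, 5.46 and 0 FPKM in buds. All 3 full blooming libraries lay far above the buds, and the gene stood at rank 32 in full blooming and 29870 in buds. It changed by 9.28 ± 0.49 on the log2 scale (SE; adjusted p of 3.22e-08 with limma), and 10.62 with a pseudocount of 0.1. Partial blooming lay between, at 454, 835 and 617 FPKM. It was at 1389, 1436 and 1427 FPKM in early senescence and averaged 641 ± 93.1 FPKM in late senescence (SD, n = 3).

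F01.PB33734 had 513, 509 and 345 FPKM in full blooming and is listed at 0 in all 3 buds, so no fold is given. Its mean of 456 FPKM was the highest among the 62 genes seen in full blooming and not in buds. The limma adjusted p was 7.25e-11, and 2.71e-10 without full blooming replicate 3. The gene was at 184, 320 and 225 FPKM in partial blooming and never returned to 0, with 340 ± 29.4 FPKM in early senescence and 134 ± 26.7 in late senescence (SD, n = 3 each). Among the full blooming libraries, replicate 3 had the lowest value of both genes.

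F01.PB24621 fell to 1.12, 0.51 and 23.14 FPKM in full blooming, against 357, 459 and 633 FPKM in buds. The stages did not overlap, but replicate 3 was far above the other full blooming libraries. The change was -6.79 ± 0.79 on the log2 scale (SE; adjusted p of 5.30e-05 with limma), and -8.04 without that library. Partial blooming was already low, at 3.15, 6.84 and 9.82 FPKM. In late senescence the gene averaged 10.3 ± 4.70 FPKM (SD, n = 3), still far below the buds.

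F01.PB6673 had 1.84, 2.30 and 1.06 FPKM in full blooming, against 182, 266 and 428 FPKM in buds. Here full blooming replicate 3 was the lowest of the 3 and did not stand apart. The change was -6.68 ± 0.56 on the log2 scale (SE; adjusted p of 2.48e-06 with limma). It was at 8.43, 2.75 and 4.60 FPKM in partial blooming, and at 1.46, 14.46 and 2.87 FPKM in late senescence.

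**Figure D5:**
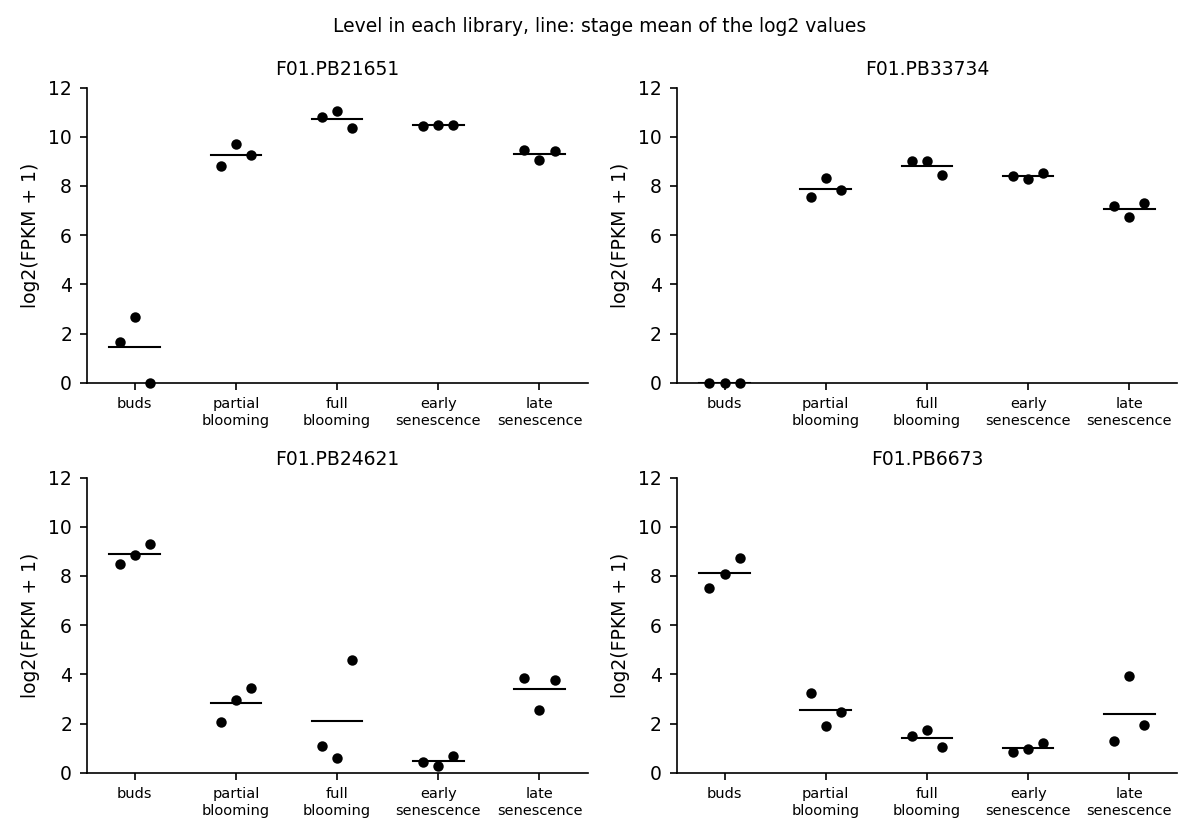
Level of the 4 named genes as log2(FPKM + 1) (vertical axis) in each library, by stage; points are libraries and lines are means. F01.PB21651 and F01.PB33734 stand high from partial blooming onward, and F01.PB24621 and F01.PB6673 stand low from partial blooming onward, with full blooming replicate 3 at 23.14 FPKM for F01.PB24621.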

How the data were processed

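The authors deposited 1 table of FPKM values with 1 column per library; the unit is read from the table's name and its values. The tools named, without role or order, per the submitters' processing notes, were HTSeq 0.6.1, DESeq 1.18.0, TopHat2 2.0.12 and Bowtie2 2.2.3. Which reference, annotation and strand setting they used is not given in the sources used here, so copies of 1 gene and overlapping genes may share reads.

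Columns were matched to libraries by the code in the labels. Genes at 1 FPKM or more in at least 3 of the 6 libraries were tested after a log2(FPKM + 1) transform. The fit (R 4.3.3, limma 3.58.1) covered all 15 libraries and allowed the spread to follow the mean; the contrast was full blooming minus buds, two-sided, called at an adjusted p under 0.05. Leaving out a library kept the same 41159 genes. On simulated data with noise of the fitted size over these genes, 41 of 100 genes changed by 1 log2 unit and 90 of 100 changed by 2 were recovered. The sign was wrong for 0 of them, and 5 genes with no change were called. The changed genes were drawn only from those with a mean log2(FPKM + 1) above 2 in buds. The noise of a gene had the same size in every library. In the data, the median SD over tested genes was 0.325 in full blooming, 0.143 there without replicate 3, and 0.262 in buds. The recovery thus covers neither scarce genes nor a library that stands apart. Named genes were the 2 largest rises and 2 largest falls among genes called with and without full blooming replicate 3, without overlap and with a mean of at least 10 FPKM in the higher stage. The comparison and the choice of analyses were made with earlier results of these data known. No gene list was tested, since the identifiers carry no names.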

Additional observations from a re-analysis of the deposited data

How the results depend on the processing

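Under the alternatives, 263 values were computed again. Of these, 226 held: calls did not change, counts were within 1.5 times, median changes within 0.1 and shares within 1 SD; 37 moved, and no called value changed sign. The median change of all tested genes, which carries no call, was -0.19 as deposited and 0.008 with quantile normalization and without full blooming replicate 3. Part of the 226 values could not move. Without a library of another stage, the changes between these 2 stages stay the same by construction, with a median of -0.19. The same holds for the 6 libraries alone, for the replicate block and where the spread did not follow the mean. The 226 are therefore not a count of independent checks. The 4 named genes were called in the same direction under all 27 alternatives, with adjusted p up to 0.0107 (limma, F01.PB24621). They were chosen as the largest changes called with and without full blooming replicate 3, so these calls are no independent check. Their values under the 27 alternatives are among the 263, and all of them are among the 226 that held. The cause was not tested for any shift; a demand for a minimum change passes fewer genes by its construction. The 6 libraries alone gave 2542 higher and 2567 lower genes, library quality weights 13114 lower genes, and a minimum change of 1 log2 unit 2334 and 3481. Leaving out each of the 15 libraries in turn gave from 3132 to 5140 higher and from 3502 to 11511 lower genes. Settings combined after the data were seen, without full blooming replicate 3, gave 7964 higher genes after median-ratio scaling and 7567 after quantile normalization.

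The replicate numbers are shared by both stages, but the labels do not say that they mark a pairing. Deviations of same-numbered libraries correlated at -0.24, 0.18 and -0.42, so they were not treated as pairs. No full blooming library correlated best with the bud library of its own number. The highest values were 0.45 for full blooming replicate 3 with bud replicate 1 and 0.4 for full blooming replicate 1 with bud replicate 3. Deviations from a mean of 3 libraries are tied to each other, so these correlations are a weak check. With the replicate number as a block, 4094 genes were higher and 5918 lower. The number of reads per library is unknown, so what depth limits could not be given.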
